A study of Mus musculus with 88 samples.

Results

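Erythroid genes were followed in 6 mouse tissues 24 h after partial-body irradiation. The 8 genes were Alas2, Slc4a1, Klf1, Tfrc, Ermap, Rhag, Hemgn and Epor, and every probe that carried 1 of these symbols or an older alias was taken, which gave 12 of the 25697 probes on the array and 8 of the 16593 genes with a probe. A probe was used in a tissue if its detection p was under 0.01 on at least 3 arrays of that tissue. Of the 12 probes, 11 passed in the spleen, 6 each in the kidney cortex and kidney medulla, 5 each in the liver and lungs, and 4 in the thyroid. The second Ermap probe (ILMN_2801970) was not detected on any of the 88 arrays and is not described further.

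RNA came from female BALB/c nude mice aged 4 months, which carry the Foxn1nu allele, lack a thymus and are poor in T lymphocytes. A single dose of 2 Gy of 4 MV photons was given under anesthesia to the collum, which is the neck region with the thyroid, in group A (3 mice), to the thorax and abdomen in group B (3 mice), and to the collum, thorax and abdomen in group C (3 mice), and 5 sham controls were anesthetized but not irradiated. The animals were killed by cardiac puncture, perfusion of the organs is not mentioned, and 6 tissues of each animal (spleen, liver, lungs, thyroid, kidney cortex and kidney medulla) were hybridized to Illumina MouseRef-8 arrays without pooling. The spleen, liver, lungs and kidneys lay within the field in groups B and C and outside it in group A.

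Red cells arise from progenitors that depend on the hormone erythropoietin, take up iron through the transferrin receptor, make haem and globin, and lose their nucleus. In adult mice the red pulp of the spleen takes part in this process together with the bone marrow, which is not the case in healthy adult humans. Epor encodes the erythropoietin receptor, Klf1 an erythroid transcription factor, and Tfrc the transferrin receptor. Alas2 encodes the erythroid form of the enzyme that starts haem synthesis. Slc4a1 encodes the anion exchanger band 3, the main membrane protein of the red cell, of which a shorter form is made by acid-secreting intercalated cells of the kidney collecting duct. Rhag encodes the Rh-associated glycoprotein, Ermap an erythroid membrane protein of the immunoglobulin superfamily, and Hemgn (hemogen) a nuclear protein of haematopoietic cells. Young red cells, the reticulocytes, still hold RNA of some of these genes, so blood within an excised tissue contributes to its signal.

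GATA1, the principal erythroid transcription factor, binds GATA motifs. The last 100 bases before the RefSeq start site (GRCm38.p6) are therefore shown for 6 of the genes, written 5′ to 3′ on the strand of the gene, with matches to the GATA motif (AGATAA or AGATAG, and likewise TGATAA or TGATAG) and to the Klf1 motif (CCNCNCCC), each on either strand, in capitals.
Alas2, chrX:150547317-150547416, plus strand: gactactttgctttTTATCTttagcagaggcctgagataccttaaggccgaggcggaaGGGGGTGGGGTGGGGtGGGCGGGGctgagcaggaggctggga
Klf1, chr8:84901882-84901981, plus strand: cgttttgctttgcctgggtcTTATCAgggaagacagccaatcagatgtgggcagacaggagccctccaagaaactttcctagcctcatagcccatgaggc
Ermap, chr4:119189996-119190095, minus strand: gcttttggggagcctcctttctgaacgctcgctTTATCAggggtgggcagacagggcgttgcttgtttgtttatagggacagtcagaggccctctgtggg
Rhag, chr17:40811049-40811148, plus strand: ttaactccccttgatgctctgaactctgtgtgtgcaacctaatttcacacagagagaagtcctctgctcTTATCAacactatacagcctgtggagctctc
Hemgn, chr4:46404184-46404283, minus strand: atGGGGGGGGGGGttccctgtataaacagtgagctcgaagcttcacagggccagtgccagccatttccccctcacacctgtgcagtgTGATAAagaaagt
Epor, chr9:21963577-21963676, minus strand: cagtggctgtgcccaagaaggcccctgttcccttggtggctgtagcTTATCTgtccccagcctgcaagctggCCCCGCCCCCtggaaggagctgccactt
A GATA match lay between 86 and 81 bases before the start in Alas2, 80 and 75 in Klf1, 67 and 62 in Ermap, 54 and 49 in Epor, 31 and 26 in Rhag and 13 and 8 in Hemgn. Promoters of 7 genes were matched by symbol, since Slc4a1 was not in the promoter table used here. In the 250 bases before the start, 6 of the 7 held the GATA motif, all but Tfrc, against 27.1% of all 27025 promoters. In the last 100 bases, a length chosen after the matches were seen, 10.6% of all promoters held it. The Klf1 motif was found within 250 bases in 4 of 7 (45.6% of all promoters), the E-box CAGNTG in 4 of 7 (44.5%) and the Nfe2 motif TGANTCA in 0 of 7 (6.87%). Overlapping matches of the Klf1 motif count once per promoter, and a match describes the letters only.

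Between 33.2% and 50.3% of probes were detected per array. Markers of B lymphocytes were detected in the spleen with 6 of 7 genes on the array and averaged 9.37 to 10.35 on the log2 intensity scale in control spleens. Targets of p53, which respond to radiation damage, had list means of 7.51 to 7.64 in spleens of group A, 9.03 to 9.14 in group B and 8.99 to 9.42 in group C, against 7.5 to 7.72 in controls. Transcripts of pancreatic acinar cells, which do not belong to the spleen, averaged 10.46 in the spleen of group B replicate 3, 8.24 in group C replicate 3, 7.06 in group C replicate 2 and 5.83 in control replicate 3, against 4.72 to 4.81 in the other 10 spleens. In samples labelled thyroid, only 2 of the 4 thyroid follicle genes on the array were detected, and their mean ranged between 4.45 and 11.10 in group A, between 4.47 and 6.13 in group B, between 4.40 and 9.88 in group C, and between 4.41 and 10.83 in controls. Skeletal muscle genes averaged 13.37 to 14.30 in groups B and C and 14.14 to 14.22 in control thyroids, and 4.62 to 14.13 in group A. These pieces are called thyroid by their label only.

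In unirradiated mice the probes of Alas2, Slc4a1, Klf1, Tfrc and Epor, 6 in all, each of which passed the detection filter in the spleen and in at least 1 other tissue, had a higher level in control spleens than in each of the 5 other control tissues (limma, adjusted p under 0.01 and log2 ratio of at least 0.58). This was true of 14.4% of the 15933 probes tested. Klf1 was not detected in any control lung, kidney medulla or thyroid, nor Epor in any control liver or thyroid. There the spleen was set against background, which fixed the direction, so only the comparisons with the remaining tissues test these 2 probes. The other 5 probes, of Ermap, Rhag and Hemgn, passed the filter through the spleen alone, which fixed the direction of their difference, so that their values are given as a description. Levels in this comparison are log2 intensities normalized over all arrays, and the order of different genes cannot be read from them.

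Slc4a1, the band 3 gene, measured 14.80, 14.84, 14.91, 14.91 and 14.91 in the 5 control spleens. In kidney medulla it measured 11.29, 11.54, 10.95, 11.10 and 11.49 and in kidney cortex 10.35, 10.60, 10.67, 10.35 and 10.43. These kidney samples lay close together. In lungs it measured 8.98, 9.37, 9.15, 8.29 and 12.30, in liver 7.17, 6.56, 6.65, 6.92 and 8.81, and in thyroid 6.40, 6.63, 6.31, 5.73 and 10.73. Control replicate 5 stood apart in lungs, liver and thyroid but not in the kidney samples. Liver minus kidney cortex was -3.26 on the log2 scale (limma, adjusted p = 9.6e-05) and kidney cortex minus thyroid 3.32 (adjusted p = 6.3e-05), differences of a kind called for 21% and 22.6% of all probes. Kidney cortex minus kidney medulla was -0.79 (adjusted p = 0.541), and lungs minus kidney medulla -1.66 (adjusted p = 0.0287), both short of the threshold.

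Alas2 followed another order. It averaged 14.11 ± 0.14 in spleen, 11.63 ± 0.72 in lungs, 9.26 ± 0.20 in liver, 9.22 ± 1.47 in thyroid, 8.75 ± 0.49 in kidney medulla and 8.22 ± 0.58 in kidney cortex (SD, n = 5 each). The lungs had the second highest mean, 2.88 above kidney medulla and 3.41 above kidney cortex (called for 24.3% and 24.4% of all probes), and spleen exceeded lungs 5.60-fold. Liver minus thyroid was 0.04 (adjusted p = 0.948). After the spleen, the band 3 gene thus had its highest mean in kidney medulla and the haem enzyme gene in lungs.

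Klf1, the transcription factor, averaged 13.19 ± 0.17 in spleen and 7.01 ± 0.38 in liver, a 72.5-fold difference (SD, n = 5 each). It was detected on 16 of 16 liver arrays, 12 of 14 kidney cortex arrays, 4 of 14 kidney medulla arrays and 2 of 14 lung arrays. Since it was not detected in any control lung, kidney medulla or thyroid, only bounds can be given there, namely at least 249.7-fold, 200-fold and 152-fold higher in spleen. A bound compares the mean of the spleens with the lowest signal among detected probes on the arrays of the other tissue, or with the probe's own signal where that was higher.

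Tfrc, which every dividing cell uses, was detected in all tissues. Its probes (ILMN_2619848 and ILMN_2860804) averaged 13.58 and 13.60 in spleen and between 8.93 and 10.24 elsewhere, and the spleen level was 10.3-fold to 25.1-fold higher. Ermap, Rhag and Hemgn did not pass the detection filter outside the spleen. For these, the spleen was at least 33.2-fold to 59.9-fold higher for Ermap, at least 32.4-fold to 58.4-fold higher for Hemgn, and at least 14.1-fold to 33.4-fold higher for the 3 Rhag probes. In control spleens Ermap averaged 11.13, Hemgn 11.10 and the Rhag probes 9.90, 10.03 and 10.29.

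Epor measured 9.70, 9.90, 9.58, 9.92 and 9.90 in control spleens. Its second highest level was in kidney medulla with 6.47, 6.78, 5.96, 6.60 and 6.16, against 5.59, 5.50, 5.77, 5.52 and 5.52 in kidney cortex. Kidney cortex minus kidney medulla was -0.81 (adjusted p = 6.4e-05) and lungs minus kidney medulla -0.97 (adjusted p = 2.9e-07), called for 2.96% and 22.3% of all probes. Epor was detected on 14 of 14 kidney medulla arrays, 12 of 14 lung arrays, 10 of 14 kidney cortex arrays, 1 of 16 liver arrays and 0 of 16 thyroid arrays. Against the control livers and thyroids, where it was not detected, the spleen was at least 13.2-fold and 14.5-fold higher.

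**Figure D1:**
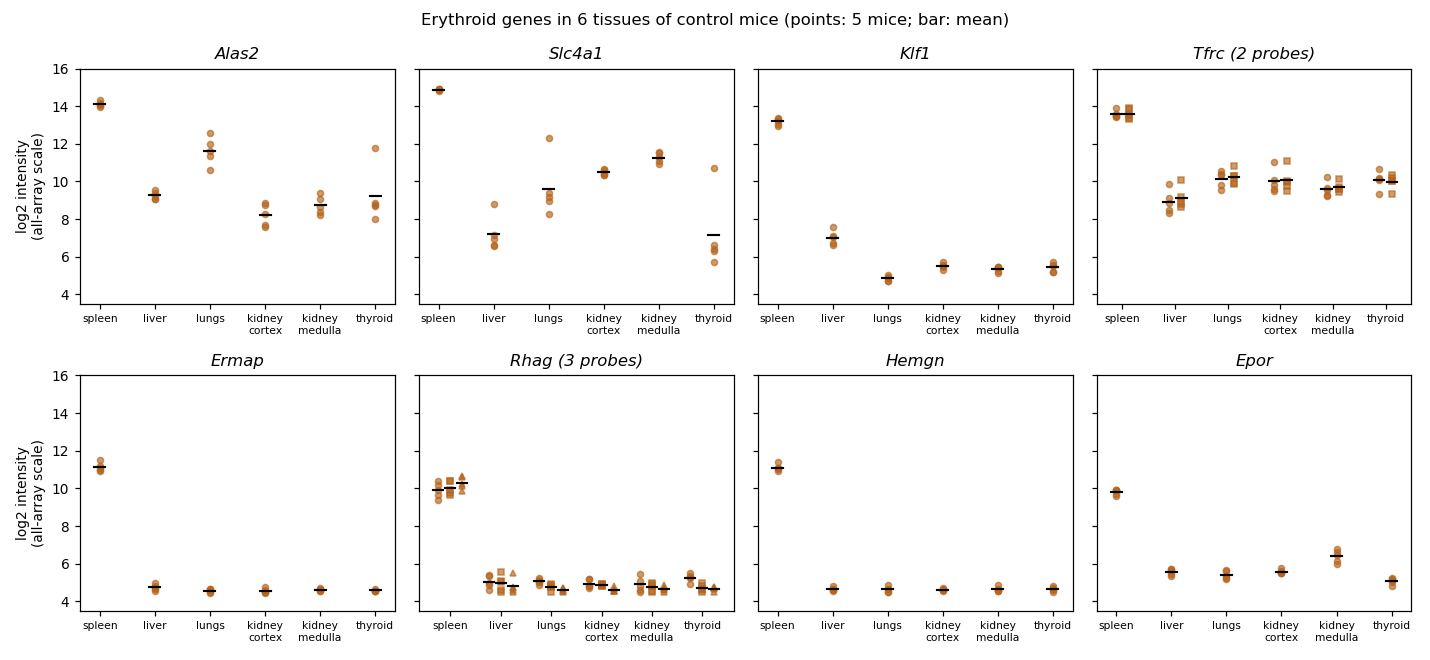
Log2 intensity on the all-array scale of the erythroid probes in 6 tissues of the 5 control mice, with points for mice, bars for means and marker shapes for different probes of a gene. The spleen is highest for each gene. Slc4a1 comes next in the kidney and Alas2 in the lungs, while points near 4.6 are at background. Undetected probes can lie higher, such as Epor in liver, which averaged 5.57.

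Of the members, Slc4a1, Alas2, Klf1 and Tfrc were among the brightest probes of the spleen. Slc4a1 ranked between 4 and 23 of 25697 probes over the 14 spleens, with a median rank of 10, and Alas2 between 30 and 116. Klf1 ranked between 124 and 292 and the Tfrc probes between 87 and 428, while Ermap and Hemgn ranked between 750 and 2366, the Rhag probes between 1368 and 3412, and Epor between 1932 and 3596. These ranks describe the brightness of probes, which does not order the transcripts.

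No erythroid probe was regulated in the spleen of any irradiated group, while 1 of 11 had an unadjusted p under 0.05 in group A (9.95% of all spleen probes), 3 in group B (9.6%) and 0 in group C (10.2%; limma). Of all spleen probes, 0.00822% were regulated in group A, 0.0493% in group B and 0.0658% in group C, where regulated means an adjusted p under 0.01 and an absolute log2 ratio of 0.58 or more (limma, 12167 probes). The study, from its own processing, reported more regulated spleen transcripts in each group. The largest log2 ratio was that of Hemgn in group B, and group B was the setup in which all 11 probes had a ratio under 0, against 51.4% of all spleen probes. Bulk RNA cannot tell fewer erythroid cells from less RNA per cell, and the 3 setups share their controls.

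In group B, Hemgn measured 10.08, 10.54 and 10.15 in irradiated spleens, against 10.97, 11.02, 10.86, 11.31 and 11.05 in controls. Every irradiated value lay below every control value. The log2 ratio was -0.78 (SE 0.21), a fold of 0.582, with an adjusted p of 0.235, which is not significant. Ermap measured 10.72, 10.45 and 10.36 in group B and 10.95, 11.01, 10.86, 11.11 and 11.42 in controls. Again the groups did not overlap, and the log2 ratio was -0.56 (SE 0.18) with an adjusted p of 0.321. Epor measured 9.41, 9.30 and 9.31 in group B and 9.75, 9.94, 9.64, 9.96 and 9.94 in controls. Its groups were apart as well, and its log2 ratio was -0.50 (SE 0.15, adjusted p = 0.264). These 3 probes were those with an unadjusted p under 0.01, as were 3.07% of all spleen probes.

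The other 8 probes in group B had ratios between -0.38 (Rhag) and -0.14 (Slc4a1), and the median of the 11 was -0.25, against -0.01 over all probes. Groups without overlap were found for 4 of 11 probes, the first Tfrc probe included, and group B was below all controls in 5.85% of all probes. The first Tfrc probe differed by only -0.22, since its controls lay close together apart from replicate 5 (13.23, 13.19, 13.24, 13.35 and 13.77), against 13.15, 13.15 and 13.12 in group B. Alas2 overlapped, with 14.01, 13.86 and 13.71 in group B and 14.02, 14.15, 13.87, 14.38 and 13.99 in controls. Klf1 overlapped as well, with 12.85, 12.69 and 12.57 in group B and 12.98, 12.85, 12.75, 13.08 and 13.10 in controls.

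In group A, whose spleens lay outside the field, 7 of the 11 ratios were under 0 (49.6% of all spleen probes) and 4 above, with a range between -0.21 and 0.38. Epor measured 10.40, 10.23 and 10.06 in group A, against 9.75, 9.94, 9.64, 9.96 and 9.94 in controls. All group A values were above all control values, which was true of 4.43% of all spleen probes, but the log2 ratio of 0.38 (SE 0.15) had an adjusted p of 0.424. Alas2 had a ratio of 0.37 (adjusted p = 0.588), with 14.60, 14.37 and 14.38 in group A and 14.38 in the highest control. The largest spread within a group was that of the first Tfrc probe, which measured 12.17 in group A replicate 1, against 13.77 and 13.49 in the other group A spleens.

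In group C the ratios lay between -0.27 (Hemgn) and 0.38 (Rhag), and no probe had an unadjusted p under 0.05, against 10.2% of all probes. The 3 spleens of group C covered a wider range than those of group B for each of the 11 probes. Alas2 measured 14.72, 14.20 and 13.48 and Hemgn 11.43, 10.49 and 10.40, with replicate 1 highest for both genes. Replicate 1 was highest in this group for every probe but Slc4a1, for which it was lowest with 14.85.

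**Figure D2:**
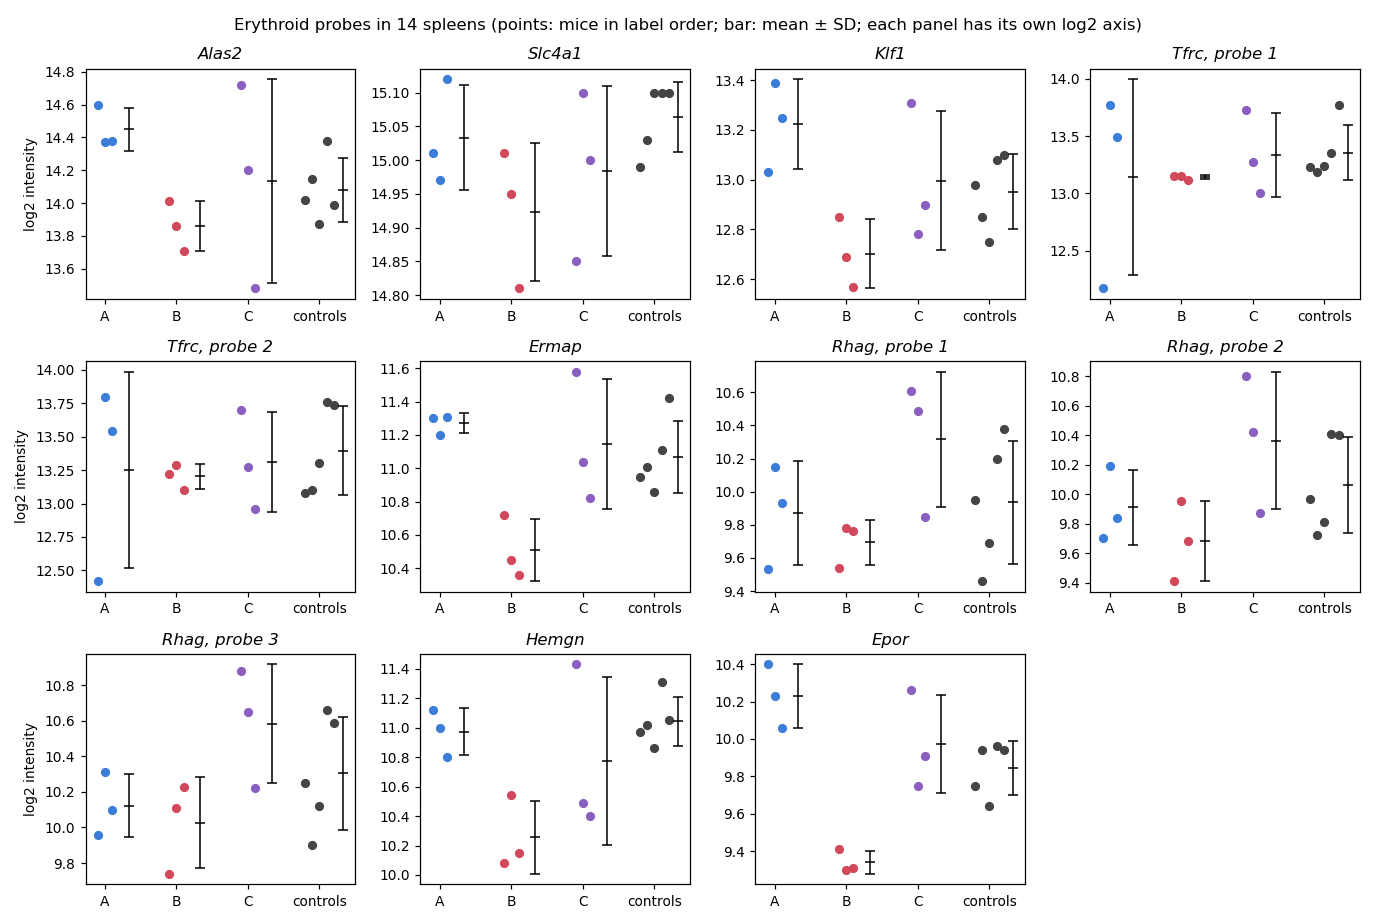
Log2 intensity of the 11 erythroid probes in 14 spleens, normalized within the spleen, with a point per mouse and the mean ± SD beside each group (n = 3, 3, 3 and 5). In group B the points of Hemgn, Ermap and Epor lie below those of the controls, while the points of group C spread more widely than those of group B for each probe.

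**Figure D3:**
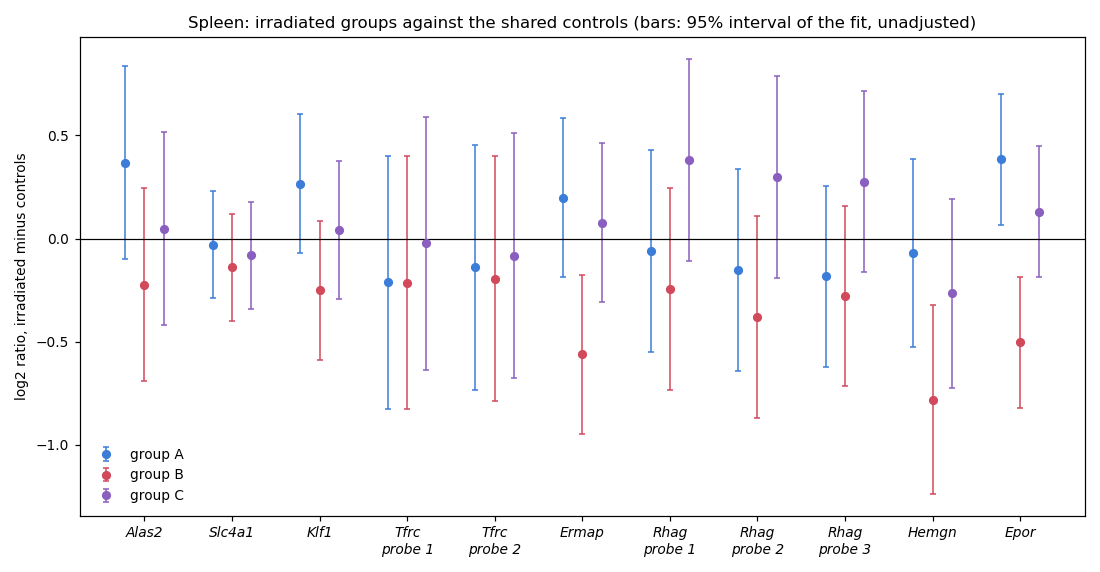
Log2 ratio of each erythroid probe between irradiated and control spleens for groups A, B and C, with 95% intervals of the fit before adjustment for the number of probes. The intervals of Hemgn, Ermap and Epor exclude 0 in group B, and that of Epor in group A, but none had an adjusted p under 0.05.

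The spleens of groups B and A were also compared directly. Epor was 0.89 lower in group B than in group A on the log2 scale (SE 0.17, fold 0.540), with 9.41, 9.30 and 9.31 in group B spleens, against 10.40, 10.23 and 10.06 in those of group A. The adjusted p was 0.0245, above the threshold of 0.01 used here, so that 0 of 11 probes were called, against 0.0822% of all probes, while an unadjusted p under 0.05 was found for 5 of 11 and for 20.7% of all probes. All 11 ratios were under 0 (52% of all probes), and 5 probes had every group B value below every group A value (17.9% of all probes), namely Epor, Ermap, Hemgn, Klf1 and Alas2. Ermap differed by -0.76 (adjusted p = 0.0575), Hemgn by -0.71 (adjusted p = 0.111), Klf1 by -0.52 (adjusted p = 0.114) and Alas2 by -0.59 (adjusted p = 0.184). The Tfrc ratios, -0.0039 and -0.06, were near 0, and without group A replicate 1 they were -0.48 and -0.46.

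Between groups C and B, which both had the spleen in the field, all 11 ratios were above 0 (48% of all spleen probes were under 0) and 0 probes were called, as were 0 of all probes (unadjusted p under 0.05 for 6 of 11, and for 11.2% of all probes). Epor measured 10.26, 9.75 and 9.91 in group C and 9.41, 9.30 and 9.31 in group B, a difference of 0.63 (SE 0.17, adjusted p = 0.217). Ermap differed by 0.64 (adjusted p = 0.260) and the 3 Rhag probes by 0.62, 0.68 and 0.56, and the median was 0.52. Without group C replicate 1 and control replicate 5 the median was 0.18 and 3 of 11 ratios were under 0.

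Other red cell genes were read from lists of related function. In group B the list of red cell membrane and cytoskeleton genes had 15 of 15 probes with a ratio under 0 and a median of -0.58, and 9 probes had an unadjusted p under 0.05 in this direction, while 9.6% of all spleen probes had one in either direction, but 0 were called. Its probes with the smallest p were Icam4, a blood group glycoprotein (-0.82, adjusted p = 0.235), and Tmod1, which caps actin filaments of the membrane skeleton (-0.93, adjusted p = 0.235). Haem synthesis and transport genes had 20 of 23 under 0 with a median of -0.45. Here Slc25a38, the mitochondrial glycine carrier, had a ratio of -0.71 and Abcb10, a mitochondrial transporter, one of -0.75 (adjusted p = 0.235 each).

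Red cell enzymes and chaperones had 20 of 22 probes under 0 in group B, with a median of -0.36. Fn3k, which removes sugar from glycated proteins such as haemoglobin, had a ratio of -1.11 (adjusted p = 0.0458), which is above the threshold, and the water channel gene Aqp1 had one of -0.73 (adjusted p = 0.170). Between groups B and A, Fn3k was called, 1.61 lower in group B (SE 0.22, adjusted p = 0.0056). The erythroid transcription list, which also holds genes that are not transcription factors, had 15 of 15 probes under 0 in group B with a median of -0.26. Among these were Nfe2 (-0.67, adjusted p = 0.235) and Tal1 (-0.57, adjusted p = 0.261), while Gata1 itself, named after its value was seen, had a ratio of -0.05.

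Iron uptake and storage genes had 5 of 13 probes under 0 in group B (median 0.10), and erythropoietin signalling genes 7 of 14 (median 0.03). The iron exporter gene Slc40a1, which spleen macrophages express, had a ratio of 0.65 (adjusted p = 0.378), and the iron importer gene Slc11a2 one of -0.58. In group C, Cish and Socs3 of the erythropoietin signalling list had ratios of 1.47 (limma, adjusted p = 0.339) and 1.02 (adjusted p = 0.100). Neither was called, and they were named for their small p, so they do not describe the list. The 3 globin probes had a median of -0.02 in group B. In group C the medians were 0.01 for red cell membrane, 0.06 for haem synthesis, -0.14 for red cell enzymes and 0.04 for transcription.

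**Figure D4:**
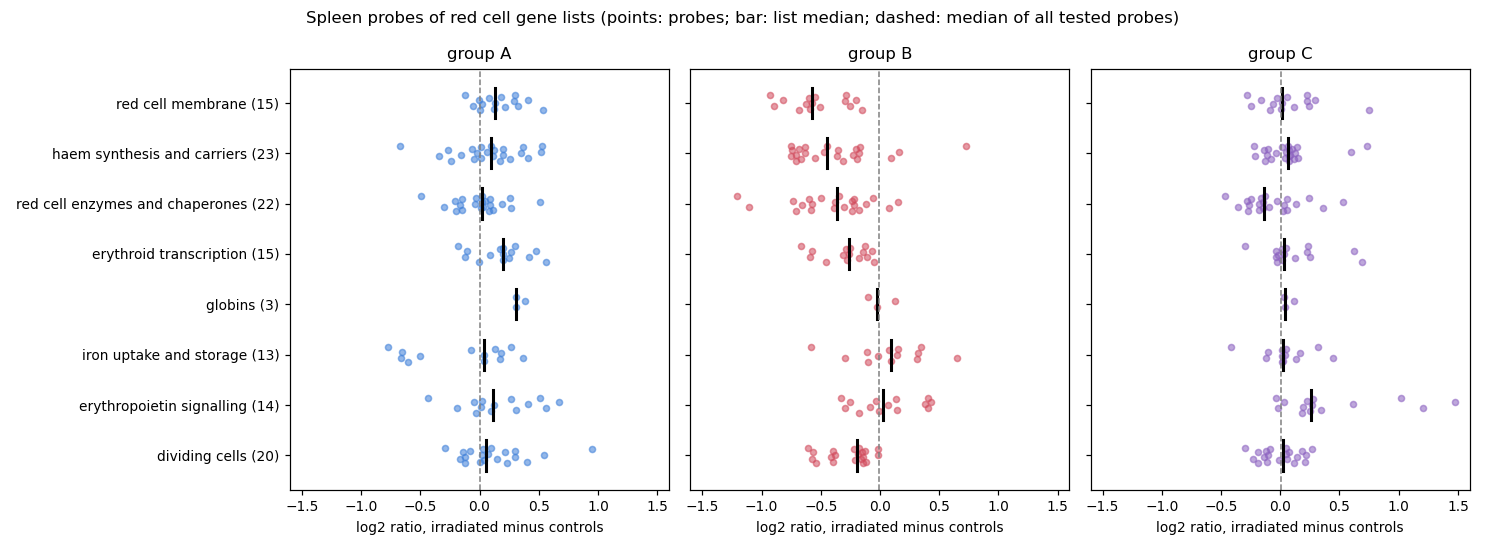
Log2 ratios between irradiated and control spleens for the probes of 8 gene lists in groups A, B and C, with a point per probe, a bar at each list's median and a dashed line at the median of all spleen probes. In group B the red cell membrane, haem synthesis, enzyme and transcription lists lie mostly left of the line, while the globin, iron and erythropoietin lists do not.

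Markers of other spleen cells were read in group B as well, and their values overlapped those of controls for neutrophils and macrophages. Neutrophil genes had 11 of 11 probes under 0 with a median of -1.06, and macrophage genes 0 of 10 under 0 with a median of 0.49. Their means over the list lay between 9.16 and 9.58 in group B and 8.98 and 11.15 in controls for neutrophils, and between 9.98 and 10.31 in group B and 9.07 and 10.35 in controls for macrophages. Genes of dividing cells had 20 of 20 probes under 0 with a median of -0.20, and B lymphocyte genes a median of -0.16 in group B and -1.16 in group C. Their part in the erythroid ratios was not tested. Without the 4 spleens with acinar transcripts, 0 erythroid probes were called in groups A and B, as with all spleens. Group C then held replicate 1 alone and group B replicates 1 and 2. These calls do not show what part the acinar transcripts had in the ratios, which was not tested.

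In the 5 other tissues no member was regulated by any setup. Of all probes, 0.0188% were regulated in the liver of group C and 0% in that of groups A and B, and 0.00749% in the lungs of group B and 0% in those of groups A and C. In kidney cortex and thyroid it was 0% in each group, and in kidney medulla 1.39% in group A, 1.78% in group B and 0.13% in group C. Here too, the study reported more regulated transcripts in each tissue and group. In liver the member log2 ratios, A to C, lay between -0.43 and 0.72, in lungs between -0.42 and 0.45, in kidney cortex between -0.52 and 0.47, in kidney medulla between -0.59 and 0.51 and in thyroid between -0.71 and 1.24. An unadjusted p under 0.05 was found for Klf1 in kidney cortex of group A (0.39, adjusted p = 0.558), as for 7.76% of all probes there, and for both Tfrc probes in thyroid of group C (-0.68 and -0.71, adjusted p = 0.9997 each), as for 1.32%.

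Slc4a1 in kidney cortex of group A measured 11.05, 11.30 and 11.09, against 10.71, 10.96, 11.03, 10.72 and 10.79 in controls. All group A values were above all control values, as for 5.72% of probes, with a log2 ratio of 0.30 (adjusted p = 0.819). In kidney medulla, where both groups A and B had the most regulated probes, Slc4a1 measured 11.54, 11.69 and 11.39 in group A mice, 11.47, 11.51 and 11.52 in those of group B, 11.72, 10.19 and 11.21 in those of group C, and 11.43, 11.66, 11.11, 11.25 and 11.61 in controls. These overlapped in each group. Epor in kidney medulla measured 6.87, 7.72 and 5.78 in group A mice, 6.95, 6.86 and 7.14 in those of group B, 6.84, 7.18 and 7.24 in those of group C, and 6.79, 7.10, 6.26, 6.93 and 6.47 in controls. These values overlapped too, and the widest spread was that of group A.

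Of 80 probes of 59 genes in the 7 related lists tested in kidney medulla, 2 were called in group A, 2 in group B and 0 in group C, where 1.39%, 1.78% and 0.13% of all probes were called. The called probes were those of Car2 and Snx3, and the first passed the detection filter only through the irradiated groups, so that its difference is a description. Car2, encoding carbonic anhydrase II, which red cells and collecting duct cells both use, measured 6.39, 6.71 and 6.73 in group A mice and 6.60, 6.75 and 6.58 in those of group B, and was not well above background in any of the 5 controls. It was at least 1.76-fold higher in group A and at least 1.79-fold higher in group B. Snx3, a sorting protein that recycles the transferrin receptor, was higher by 1.38 in group A (SE 0.24, adjusted p = 0.00608) and by 1.34 in group B (SE 0.24, adjusted p = 0.00655). In group C mice, Car2 measured 6.84, 6.16 and 4.71 and Snx3 9.02, 8.91 and 7.71. Controls ranged from 4.64 to 4.94 for Car2 and from 7.32 to 7.86 for Snx3. Replicates 1 and 2 of group C thus lay above all controls for both probes, and replicate 3 lay among them. Tfrc and Slc4a1 themselves were not called in kidney medulla.

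The other tissues contain blood, and the globin probes were used as its measure. Hba-a1, Hbb-bt and Hbb-b2 were detected in all 6 tissues, although probes may not separate near-identical globin copies. The probes of the embryonic globin genes Hbb-bh1, Hba-x and Hbb-y did not pass the filter in any tissue. The mean of Hba-a1, Hbb-bt and Hbb-b2 ranged over the control mice between 13.01 and 13.33 in spleen and 12.25 and 12.67 in lungs. It ranged between 10.19 and 11.08 in kidney cortex, 9.81 and 10.72 in kidney medulla, 9.82 and 10.96 in liver and 8.86 and 11.65 in thyroid. These values were normalized within each tissue and are not compared between tissues.

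Alas2 varied with the globins from mouse to mouse in every tissue. Over 14 samples per tissue and after removal of group means, Pearson's r was 0.83 in spleen (adjusted permutation p = 0.0044), 0.91 in liver (0.0027), 0.83 in lungs (0.0052), 0.92 in kidney cortex (0.0022), 0.91 in kidney medulla (0.0020) and 0.97 in thyroid (0.0022), adjusted over the 6 tissues. Spearman's rho lay between 0.82 and 0.91, with adjusted p between 0.0042 and 0.0104. Without the 2 samples farthest from the median globin level, r was 0.86 in spleen, 0.67 in liver, 0.60 in lungs, 0.74 in kidney cortex, 0.74 in kidney medulla and 0.87 in thyroid, with adjusted p between 0.0329 and 0.0457.

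For Slc4a1, added after the values of Alas2 were seen, r was 0.97 in thyroid (adjusted permutation p = 0.0021, rho 0.78, r = 0.87 without the 2 farthest samples), 0.87 in liver (0.0021, rho 0.83, r = 0.58) and 0.80 in lungs (0.0078, rho 0.81, r = 0.69). In kidney cortex it was 0.69 (adjusted permutation p = 0.314, rho 0.53), and 0.49 without the 2 farthest samples, where the adjusted permutation p was 0.0386, as it was in liver. It was 0.36 in kidney medulla (0.739, rho 0.36, r = -0.36 without the 2 farthest) and -0.13 in spleen (0.739, rho -0.23, r = -0.47). Differences between the genes or between tissues were not tested. The SD of the Slc4a1 deviations was 0.08 in spleen, where it is close to the upper end of the scale, against 1.09 in liver, 1.13 in lungs and 1.53 in thyroid.

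**Figure D5:**
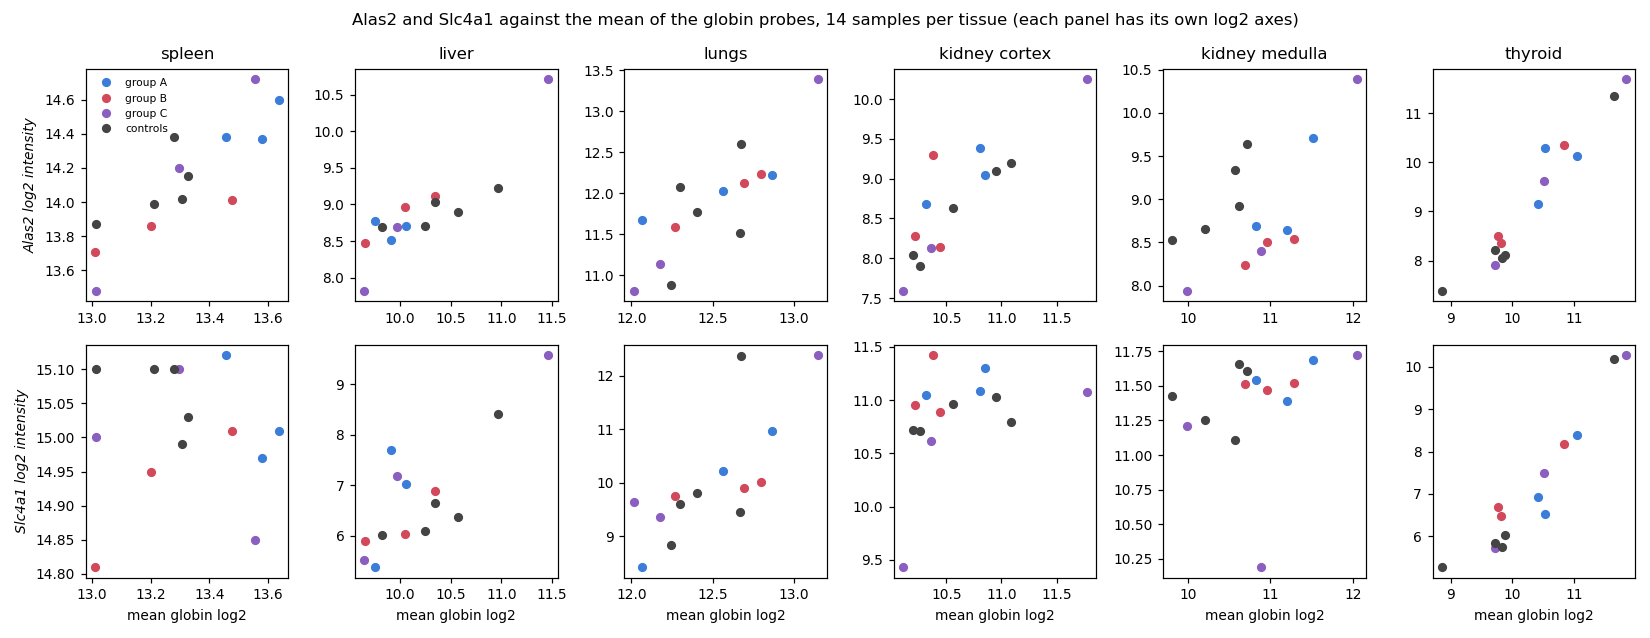
Alas2 and Slc4a1 log2 intensity against the mean log2 intensity of the globin probes in 14 samples of each tissue, coloured by group, each panel on its own axes. Alas2 follows the globins in each tissue, and r for Slc4a1 lies between 0.80 and 0.97 in liver, lungs and thyroid, where group C replicate 1 and control replicate 5 are the highest points.

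A few samples held much of this variation. Group C replicate 1 had the highest Alas2 of the 14 samples in all 6 tissues, with 13.39 in lungs, 11.70 in thyroid, 10.71 in liver, 10.39 in kidney medulla and 10.25 in kidney cortex. In lungs the other group C samples measured 11.14 and 10.81, and controls 11.51, 11.77, 12.08, 10.88 and 12.60. In thyroid the other group C samples measured 7.91 and 9.62, and controls 8.21, 8.12, 8.06, 7.38 and 11.35. Control replicate 5 came second to group C replicate 1 for both Alas2 and Slc4a1 in liver, lungs and thyroid. The labels do not state that a replicate number marks the same mouse across tissues.

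Over the 14 numbers, deviations of Slc4a1 in liver and thyroid had an r of 0.91 (adjusted permutation p = 0.0195 over 15 pairs of tissues, rho 0.80, adjusted permutation p = 0.0401), and r was 0.82 without the 2 farthest. This was computed after the values were seen, and of the 15 pairs for Alas2 the highest r was that of lungs and kidney medulla (0.90, adjusted permutation p = 0.03, rho 0.83 with adjusted permutation p = 0.0795, and 0.69 without the 2 farthest).

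In kidney medulla the beta globin probe Hbb-bt measured 7.92, 8.97 and 8.50 in group A mice, 8.26, 7.91 and 8.67 in those of group B, and 6.10, 7.14, 7.02, 6.88 and 7.33 in controls. Groups A and B lay above all controls, as 11.4% and 11.5% of all kidney medulla probes did, and the log2 ratio was 1.57 in group A (adjusted p = 0.110) and 1.39 in group B (adjusted p = 0.162). Group C overlapped the controls, with a ratio of 1.25 (adjusted p = 0.179). The other beta globin probe, Hbb-b2, measured 10.22, 10.91 and 10.72 in group A mice and 10.30, 10.27 and 10.83 in those of group B, against 9.25, 10.07, 10.16, 9.41 and 10.21 in controls. It too lay above all controls in both groups, with a ratio of 0.79 in group A (adjusted p = 0.202) and 0.64 in group B (adjusted p = 0.312). The alpha globin probe Hba-a1 overlapped, with ratios of 0.04 in group A and -0.25 in group B. Alas2 measured 8.69, 9.71 and 8.64 in group A mice and 8.51, 8.24 and 8.54 in those of group B, against 8.53, 8.92, 9.34, 8.66 and 9.64 in controls, and the groups overlapped.

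Likeness to other genes was described by Pearson's r, without a test, since the samples share tissue, mouse and normalization. Over 84 tissue samples the patterns most like Alas2 were Hbb-b2 (0.963), Hbb-bt (0.958) and Pf4, a platelet chemokine gene (0.942). Those of Ermap and Hemgn were most like each other (0.996) and Kel, a blood group gene (0.996 with each). Ermap and Hemgn passed the detection filter in the spleen alone, so their r over all tissues largely restates spleen against background. Over deviations from group means in the spleen, r between Ermap and Hemgn was 0.63. The pattern of Klf1 was most like that of Spic, a transcription factor gene of red pulp macrophages (0.980). Klf1 averaged 13.19 in control spleens and 7.01 in control livers, its next highest tissue. Its r over all tissues thus largely restates spleen against the other tissues. Epor was most like Slc14a1, a urea transporter gene of red cells and kidney (0.971), and Slc4a1 was most like Cdr2 (0.915). Over the 14 spleens, Epor was most like Tmc6 (0.970), Hemgn like Slc25a38 (0.955), Ermap like Foxm1 (0.957), Klf1 like H2ac4 (0.934), Alas2 like Erich2 (0.959), the first Tfrc probe like Cnih1 (0.967), a Rhag probe like Rffl (0.929) and Slc4a1 like Mfsd2a (0.770). Among the members, the 55 pairs of probes had a median r of 0.54 over deviations from group means in the spleen. The highest was 0.94, between probes of the same gene, and the lowest -0.49, which involved Slc4a1.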

How the data were processed

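RNA of 6 tissues of 14 mice was hybridized to Illumina MouseRef-8 v2 arrays, 88 in all. The intensity of each probe was deposited by the authors without normalization, and a second deposited table holds their intensity values after preprocessing and quantile normalization in the BioArray Software Environment. The detection p-value was used as deposited, and its method is not given in the sources used here. No genome build is named for the arrays.

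Background was corrected by nec of limma 3.58.1 (R 4.3.3; offset 16), with negative controls inferred from those p-values. Signals were then quantile-normalized within the tissue (over all arrays for comparisons between tissues) and taken to log2. A probe was tested in a tissue if its detection p was under 0.01 on at least 3 arrays. The 3 arrays each of 1 liver (group A replicate 1) and 1 thyroid (control replicate 5) were averaged, so that n counts animals. Each tissue was fitted with limma over its 14 samples, p was adjusted by Benjamini-Hochberg over all tested probes, and the thresholds (adjusted p under 0.01, log2 ratio 0.58) follow the methods of the study. At these thresholds the study, with its own software, reported more regulated transcripts in every tissue and group than were called here. Correlations used deviations from group means with permutation within groups (100000 resamples, or 20000 between tissues, two-sided). The fit was tested on simulated data. Signals near background have only bounds, and precision is limited by how many arrays there are.

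Of the probes, 23978 carry 1 gene symbol and 1719 none. The members and lists were chosen with earlier results of these data known. Named were all member and globin probes, of each other list at most 4 called genes by size or, with none called, the 2 of smallest p, and the 3 probes most like each member, of which the first or those with a described role are printed. Columns not used numbered 0. Alternatives were other normalizations, filters, models and thresholds, a replicate block and leaving out mice.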

Additional observations from a re-analysis of the deposited data

Results flagged for a closer look

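In 5 of the 37 groups of control samples with a detected erythroid probe, 1 sample lay far from the other 4 (gap over range above Dixon's 95% value), and chance gives this in about 1 group in 20. It was control replicate 5 each time. Its Slc4a1 level was 8.41 in liver against 6.01 to 6.64 in the other controls, 12.37 in lungs against 8.83 to 9.81, and 10.18 in thyroid against 5.27 to 6.03. Its Alas2 level was 11.35 in thyroid against 7.38 to 8.21, and its first Tfrc probe read 13.77 in spleen against 13.19 to 13.35 (all log2 intensities).

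The spleens of groups B and A differed in Epor by -0.89 on the log2 scale (limma, adjusted p = 0.0245), lower in all 3 group B samples than in any group A sample. Of 78 tests of a member's irradiation ratio in the spleen against that in another tissue, 0 had an adjusted p under 0.05 and 4 an unadjusted p under 0.05 (limma). All 4 were of Epor and share the control spleens, and the 3 of group B share its spleens too. They were group B against lungs, kidney cortex and kidney medulla (7.15%, 13.6% and 12.3% of all probes had such a p there) and group A against kidney cortex (7.4%).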

How the results depend on the processing

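The 14 counts of called probes, direction and tissue stayed within 1.5 times their value in 310 of 321 alternative fits. Counts of called probes, and of ratios under 0 between groups C and B, were 0 to begin with and could only rise. The other 11 fits each raised such a 0. The Alas2 relation to the globins held in all 18 of its alternatives. The count of probes highest in control spleen was 11 under each scaling and threshold tried and without any 1 control, and includes the 5 that passed the detection filter through the spleen alone. It also includes Klf1 and Epor, which were not detected in the controls of some tissues. In groups A, B and C no erythroid probe was called in the spleen or elsewhere in any alternative. Group C without the acinar spleens, where it held replicate 1 alone, is left aside here. In group B, all 11 erythroid and all 15 red cell membrane ratios stayed under 0 without any 1 mouse, with medians between -0.36 and -0.21 and between -0.65 and -0.47.

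Between groups B and A, 1 probe, Epor, was called at an adjusted p under 0.05 with no minimum ratio, and 1 without group C replicate 1 and control replicate 5 (-0.88, adjusted p = 0.00972). Neither of these samples is of group A or B, but all groups share 1 variance in the fit. The ratio was -0.89 with all samples, so this call does not reflect a larger difference. Over all alternatives the adjusted p of Epor lay between 0.00972 and 0.124, the highest without group B replicate 3. Group C replicate 1, control replicate 5 and the 4 spleens with acinar signal were chosen after seeing the data. The ratios of groups C and B depended on them most. Without the acinar spleens, group C held replicate 1 alone and group B replicates 1 and 2. There, 1 erythroid ratio was under 0 and the medians were 0.91 (erythroid) and 1.05 (membrane). These values rest on 1 spleen of group C and do not describe the group. Without group C replicate 1 and control replicate 5, 3 erythroid and 2 membrane ratios were under 0 and the erythroid median was 0.18. Leaving out 1 mouse gave 0 to 3 erythroid and 0 to 2 membrane ratios under 0, and an erythroid median of 0.18 (without group C replicate 1) to 0.67.

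The Tfrc ratios of groups B and A turned to 0.082 and 0.024 with the authors' values, 0.079 and 0.020 with quantile normalization over all arrays, and 0.0045 for the first probe without the acinar spleens. Without 1 mouse they ranged from -0.48 to 0.31 and from -0.46 to 0.22, and the third Rhag probe from -0.20 to 0.049. Between groups C and B, Slc4a1 turned to -0.14 without the acinar spleens, where group C held replicate 1 alone. Without group C replicate 1 and control replicate 5, Alas2 turned to -0.026 and Tfrc to -0.0075 and -0.082. Without 1 mouse, Alas2 ranged from -0.021 to 0.60, Slc4a1 from -0.0030 to 0.12, and Tfrc from -0.0052 to 0.36 and from -0.082 to 0.28. The cause was not tested.

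Within a tissue, deviations of same-numbered samples of different groups correlated between -0.50 and 0.68. These values cannot decide whether replicate numbers pair the samples. With a replicate block, 0 probes were called, the group B medians were -0.15 (erythroid) and -0.47 (membrane), and the second Tfrc probe turned to 0.042 in group B. A beadchip block was not run, since the chips are not named in the file headers. Detection limited Ermap, Rhag and Hemgn, which passed the detection filter in the spleen alone.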
